A study of Mus musculus with 4 samples.

Results

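Gap junctions couple neighbouring heart cells, and the connexins that form them were followed here across the cell types of the embryonic mouse heart. The genes were chosen by symbol, as Gja1, Gja3, Gja4, Gja5, Gjb2, Gjc1 and Gjd3, and are 7 of the 27998 genes in the count tables. The cells came from wild-type CD1 mice at embryonic day 16.5, with no transgene, treatment or sort named in the labels. Regions were microdissected from the hearts, and each gave 1 library: the SAN region (sinoatrial node, Zone I), the AVN/His region (atrioventricular node and His bundle, Zone II), and the BB/PF region (bundle branches and Purkinje fibers, Zone III) of the left ventricle (LV) and of the right ventricle (RV). Values are unique molecular identifiers (UMIs), each standing for 1 captured transcript, read from the 3′ end, so that levels of different genes need no correction for transcript length. A level is given as UMIs per 10000 UMIs of the cells summed, and the percentage of cells holding a UMI is given beside it where depth allows.

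Connexin proteins assemble into hemichannels, and hemichannels of adjoining cells dock into a channel that passes ions and small molecules. The channels differ in conductance, and in the heart fast-conducting tissue is known for connexins of large conductance, whereas nodal tissue is known for connexins of low conductance. Gja1 encodes Cx43, the main connexin of working myocytes. Gja5 encodes Cx40, of atrial and Purkinje myocytes and of arterial endothelium, Gjc1 encodes Cx45, of nodal myocytes and smooth muscle, and Gja4 encodes Cx37, an endothelial connexin. Gja3 (Cx46) is best known from the lens, Gjb2 (Cx26) from the inner ear and epithelia, and Gjd3 (Cx30.2) from the mouse atrioventricular node. Gjc1 is also an older name of Gjd3, and the files' gene identifiers tell them apart (ENSMUSG00000034520 for Gjc1 and ENSMUSG00000047197 for Gjd3). On GRCm38.p6, the RefSeq form of mm10, Gja1 lies on chromosome 10 (56377300 to 56390419, + strand), Gja5 on chromosome 3 (97032402 to 97053634, +), Gja4 on chromosome 4 (127311420 to 127314039, -), Gjc1 on chromosome 11 (102799477 to 102819686, -), Gjd3 on chromosome 11 (98979947 to 98983020, -), and Gja3 (57034460 to 57058030, -) and Gjb2 (57098602 to 57104702, -) on chromosome 14.

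Of 22805 barcodes, 21035 had at least 500 genes and were kept, with 5934 in the SAN library, 5645 in the AVN/His library, 5100 in the LV library and 4356 in the RV library. The median was 8479.5 to 9272 UMIs per cell, and 230 barcodes occurred in more than 1 library. Cells were clustered without the 7 genes and without the other genes listed for this account, and clusters were named from marker genes. There were 12861 cardiomyocyte-like, 1775 endothelial-like, 638 mural-like, 3076 fibroblast-like and 207 epicardial-like cells. Cells that carried at least 3 markers of a second class numbered 1222 of the endothelial-like, 492 of the mural-like, 1865 of the fibroblast-like and 207 of the epicardial-like cells, against 468 of the cardiomyocyte-like cells. Myocytes were split into SAN-like (107 cells, 8 of 8 markers), AVN/His-like (260 cells, 5 of 8 markers, and 5 of 8 fibroblast markers), PF-like (86 LV and 80 RV cells, 6 of 8 markers, none among the 10 leading genes), atrial-like and ventricular-like cells. When cells with markers of a second class were left out before clustering, no cluster was named PF-like, and 78 of the 107 SAN-like and 136 of the 260 AVN/His-like cells kept their names. Of the 166 PF-like cells, 164 were without such markers, and why the name was lost was not tested. With 1 library per region, differences between regions, and all values of SAN-like and AVN/His-like cells, are given without a p-value, with exact Poisson intervals for counting error only. In these summed counts, fewer cells with a transcript and fewer transcripts per cell cannot be told apart unless the share of cells is given. Macrophage-like (411) and erythroid-like (243) cells are given for comparison, and how much of their connexin signal is free RNA was not tested. Per 100 UMIs of 9 myocyte markers, Gja1 had 0.858 to 1.33 UMIs in macrophage-like and 0.666 to 0.965 in erythroid-like cells, beside 0.712 to 1.10 in cardiomyocyte-like cells. The summed markers were 30.1 to 56.9 UMIs per 10000 in macrophage-like and 222.5 to 249 in erythroid-like cells, beside 354 to 367 in cardiomyocyte-like cells, 3.15 to 5.37 in endothelial-like cells and 5.07 to 6.83 in mural-like cells.

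Gja1 was by far the most counted of the genes, with 43171 UMIs, followed by Gja5 with 9243, Gjc1 with 8919, Gja4 with 4502 and Gja3 with 500. Gjb2 and Gjd3 had 4 UMIs each. Cardiomyocyte-like cells held 88.7% of the Gja1 UMIs, 81.0% of the Gja5 UMIs and 93.8% of the Gja3 UMIs. Endothelial-like cells held 71.6% of the Gja4 UMIs and mural-like cells 8.95%. Gjc1 was spread more widely, with 45.0% in cardiomyocyte-like, 17.4% in mural-like, 15.7% in fibroblast-like and 9.37% in endothelial-like cells.

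**Figure D1:**
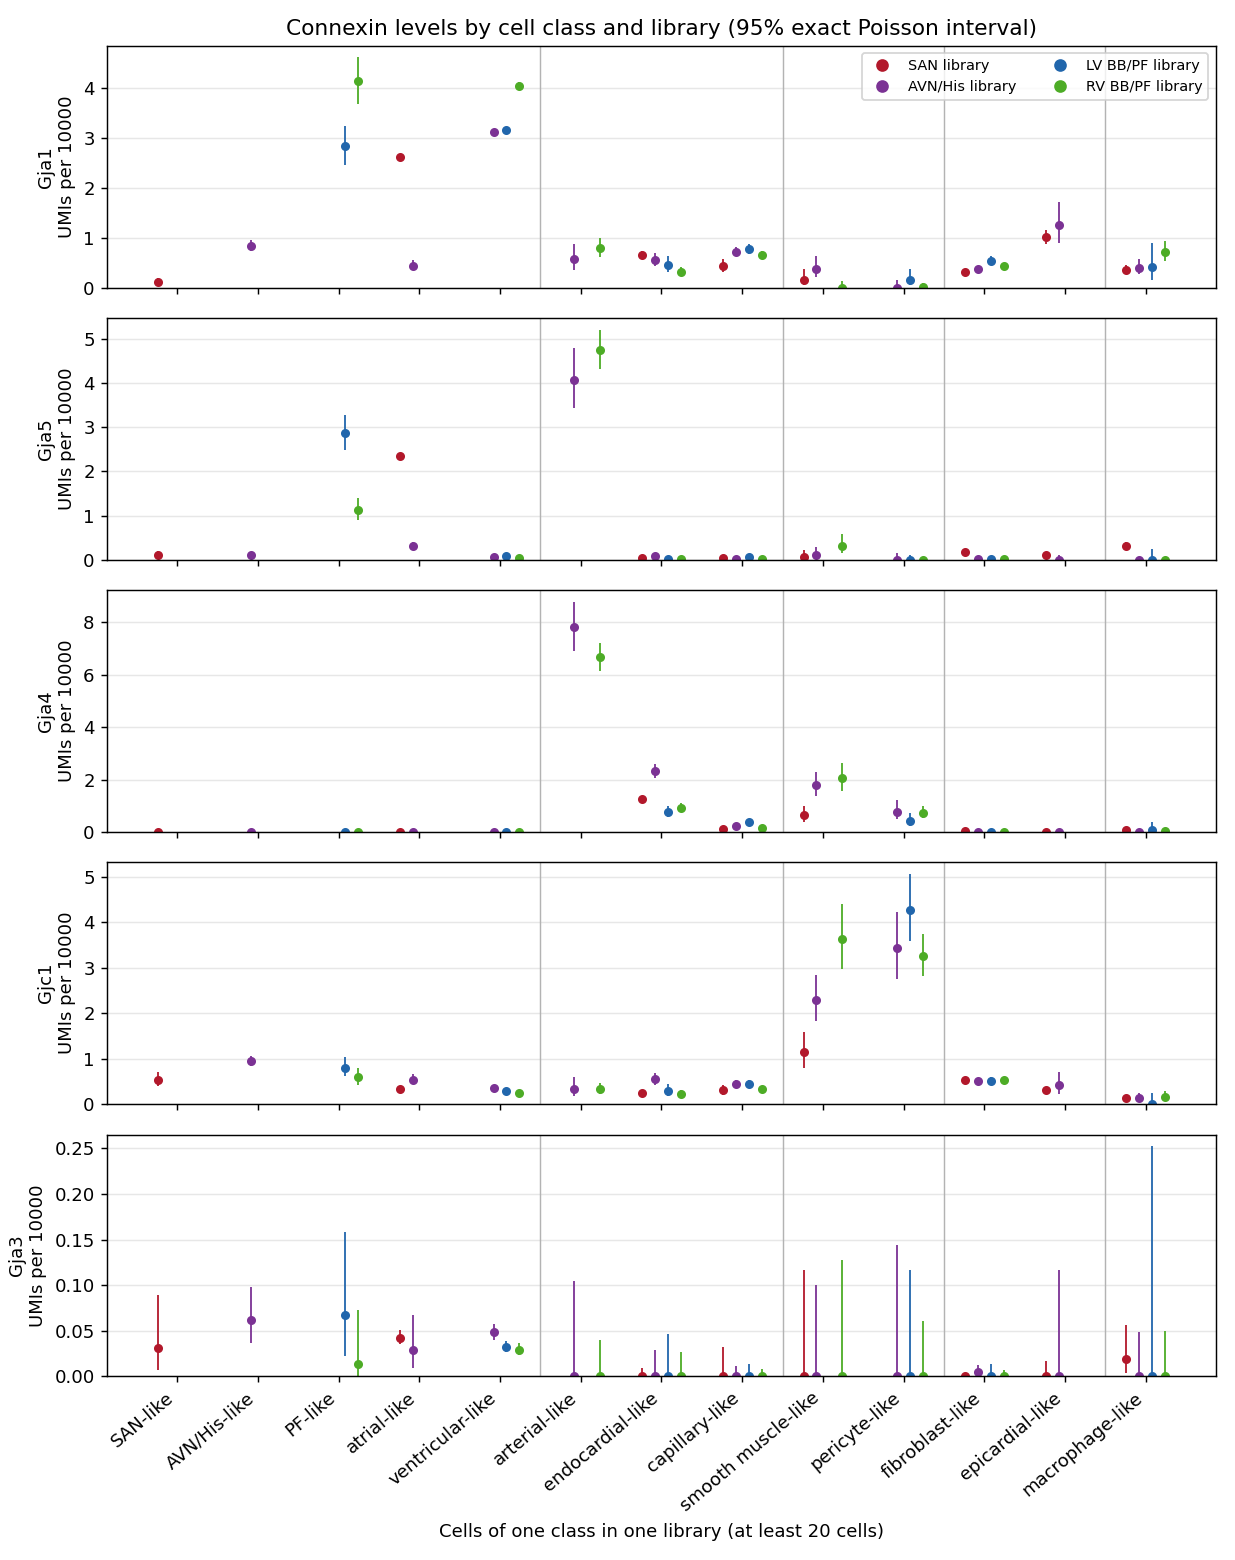
Level of each gene (vertical axis, UMIs per 10000, 1 panel per gene with its own linear scale) in each cell class (horizontal axis) and library (color), for classes of at least 20 cells in a library, with 95% exact Poisson intervals. Gja1 was high in PF-like, atrial-like and ventricular-like myocytes, at 2.61 to 4.13 except for 0.435 in the atrial-like cells of the AVN/His library, while Gja4 peaked in arterial-like cells and Gjc1 in mural cells.

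Among myocytes, Gja1 was lowest in SAN-like cells, at 0.102 UMIs per 10000 (95% interval 0.049 to 0.188, from 10 UMIs). Atrial-like cells of the same library had 2.61 (2.55 to 2.67). The SAN-like level was 0.0392 times the atrial-like level (0.0188 to 0.0722), which puts it 25.5-fold lower. AVN/His-like cells had 0.838 (0.736 to 0.95), against 3.11 (3.04 to 3.18) in ventricular-like cells of that library, a ratio of 0.269 (0.236 to 0.306). It was above the 148 atrial-like cells of that library, at a ratio of 1.93 (1.48 to 2.53). SAN-like cells were thus below the atrial-like, and AVN/His-like cells below the ventricular-like, cells of their library by more than counting error, and so were the percentages of cells holding a UMI, with 6.54% of SAN-like against 78.1% of atrial-like cells and 26.2% of AVN/His-like against 80.6% of ventricular-like cells. The medians were 8450 UMIs per SAN-like cell and 10184.5 per AVN/His-like cell, near the 8479.5 and 9015 of all kept cells of those libraries. The SAN-like level was also below the 0.354 of macrophage-like cells in the SAN library. Without cells that carried markers of a second class it was 0.107, and the AVN/His-like level was 0.834.

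In PF-like cells Gja1 was near the level of the ventricular-like cells around them. PF-like cells had 2.83 (2.46 to 3.24) in the LV library and 4.13 (3.68 to 4.61) in the RV library, against 3.16 and 4.04 in ventricular-like cells of the LV and RV libraries. The groups overlapped, and edgeR's quasi-likelihood test on summed counts put the difference at -0.25 ± 0.14 on the log2 scale (± SE here and below), which did not pass (Benjamini-Hochberg adjusted p = 0.244). Atrial-like cells differed between libraries, with 2.61 in the SAN library and 0.435 (0.342 to 0.545) in the AVN/His library, where 148 cells were named. The atrial-like against ventricular-like difference of Gja1, -1.32 ± 0.61 on the log2 scale, did not pass the test (adjusted p = 0.170, edgeR). It was -3.30 without the SAN library and -0.69 without the AVN/His library. Each of these fits has no replicate of the atrial-like sum, so no p-value is given.

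Some myocyte clusters held little Gja1 whatever their name. A Pum3-led atrial-like cluster (79 cells) had 0.245 UMIs per 10000, an Apobec2-led ventricular-like cluster (82 cells) 0.167 and a Myl4-led ventricular-like cluster (130 cells) 0.282. A Shox2-led cluster (88 cells), counted as atrial-like by 6 of 7 markers, none of them among its 10 leading genes, had 0.546. All other clusters named ventricular-like lay between 2.24 and 5.78. The Pum3-led, Apobec2-led and Myl4-led clusters had medians of 5201.5 to 5759 UMIs per cell, and their Gjc1 was also low, at 0.041 to 0.125. A ventricular-like cluster led by mitochondrial genes (403 cells) had the 5.78, with a median of 5419 UMIs. The part of RNA quality in these levels was not tested.

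PF-like cells had Gja5 at 2.86 UMIs per 10000 (2.48 to 3.27) in the LV library and 1.12 (0.898 to 1.39) in the RV library. Ventricular-like cells had 0.0923 in the LV library, 0.0387 in the RV library and 0.0542 in the AVN/His library. The ratio of PF-like to ventricular-like cells was 30.9 (25.9 to 36.8) in the LV library and 29.0 (21.5 to 39.1) in the RV library, so the ratios had overlapping intervals although both groups were lower in the RV library. In the test the log2 fold change was 4.71 ± 0.16 (adjusted p = 3.64e-75, edgeR, 2 libraries with 1 residual degree of freedom). Gja5 is on the list of Purkinje genes that the study drew from these libraries, so its direction here is not independent evidence.

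Atrial-like cells carried Gja5 at 2.34 (2.29 to 2.40) in the SAN library and 0.313 (0.235 to 0.409) in the AVN/His library. Gja5 was higher in atrial-like than in ventricular-like cells by 4.30 ± 0.73 on the log2 scale (adjusted p = 0.00803, edgeR, without a library block). In the AVN/His library, the only one with both groups, the ratio of atrial-like to ventricular-like cells was 5.78 (4.14 to 7.96). SAN-like cells had 0.102 (0.049 to 0.188), a ratio of 0.0436 (0.0209 to 0.0802) to the atrial-like cells around them. AVN/His-like cells had 0.107 (0.0726 to 0.152), above the ventricular-like cells of that library at a ratio of 1.97 (1.29 to 2.92) and below its atrial-like cells at a ratio of 0.341 (0.212 to 0.541). Macrophage-like cells had 0.302 in the SAN library and 0 UMIs in the other 3 libraries, and mural-like cells of the SAN library had 0.0638.

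**Figure D2:**
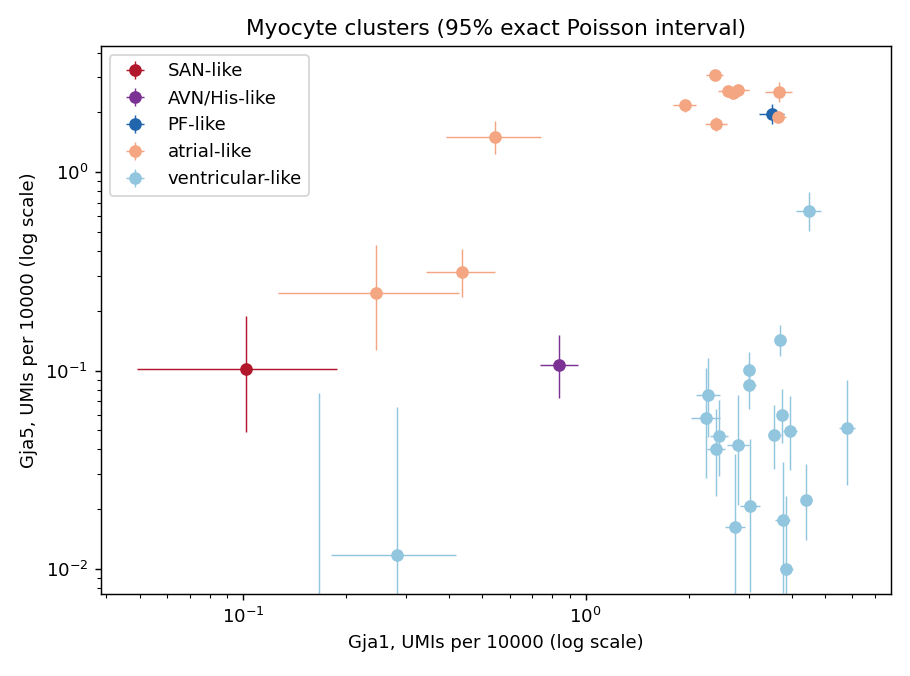
Gja1 (horizontal axis) against Gja5 (vertical axis), both in UMIs per 10000 on log scales, for each myocyte cluster, colored by its name, with 95% exact Poisson intervals. The SAN-like cluster sits at 0.102 for both genes, the PF-like cluster at 3.49 for Gja1 and 1.98 for Gja5 over both libraries, and a cluster with no Gja5 UMI cannot be drawn.

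Gjc1 had the highest level of the 7 genes in SAN-like cells, and in AVN/His-like cells its interval overlapped that of Gja1. AVN/His-like cells had 0.941 UMIs per 10000 (0.833 to 1.06), against 0.348 (0.326 to 0.372) in ventricular-like cells of the library, a ratio of 2.70 (2.35 to 3.10). SAN-like cells had 0.531 (0.397 to 0.697), against 0.324 (0.303 to 0.346) in atrial-like cells, a ratio of 1.64 (1.21 to 2.17). PF-like cells had 0.799 in the LV library and 0.588 in the RV library, against 0.279 and 0.254 in ventricular-like cells of the LV and RV libraries. Gjc1 was higher in PF-like than in ventricular-like cells by 1.18 ± 0.18 on the log2 scale (adjusted p = 2.66e-08, edgeR). All 3 conduction groups thus lay above the working myocytes of their own library in Gjc1.

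Gjc1 made up 68.4% of the 76 UMIs of the 7 genes in SAN-like cells and 48.1% of the 568 in AVN/His-like cells. In PF-like cells Gja1 made up 43.2% in the LV and 70.4% in the RV library, Gja5 43.6 and 19.2%, and Gjc1 12.2 and 10.0%. In atrial-like cells Gja1 made up 48.9% in the SAN and 33.0% in the AVN/His library, Gja5 44.0 and 23.8%, and Gjc1 6.09 and 41.0%. In ventricular-like cells Gja1 made up 89.5% over all libraries. Cells were also thinned to 2000 UMIs each to look for connexins in the same cell. Of atrial-like cells of the SAN library with a Gja5 UMI 41.9% also had Gja1, against 37.0% of those without one. For PF-like cells the shares were 48.3% and 38.6% in the LV library and 50% and 46.8% in the RV library.

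**Figure D3:**
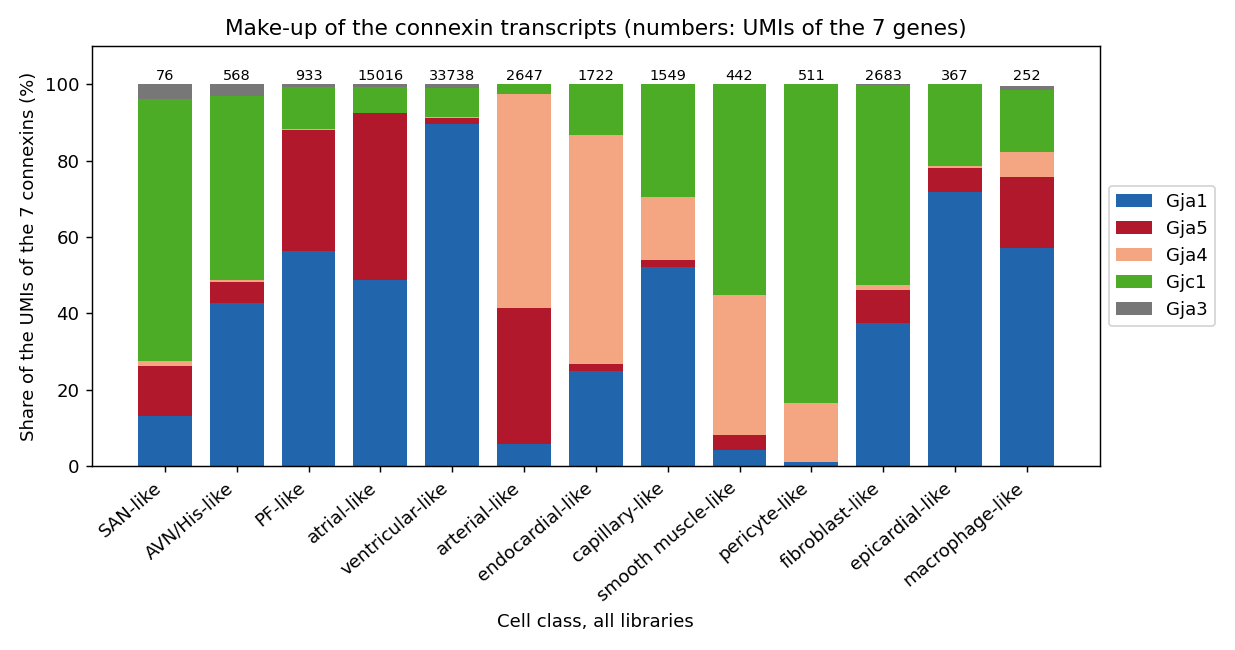
Share of each gene (vertical axis, percent) in the summed UMIs of the 7 genes, by cell class over all libraries, with the summed UMIs printed above each bar. Gjc1 takes 68.4% in SAN-like and 83.6% in pericyte-like cells, Gja1 89.5% in ventricular-like cells and Gja4 55.9% in arterial-like cells.

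Gja3 was a rare myocyte transcript. Cardiomyocyte-like cells had 0.0421 UMIs per 10000 in the SAN library, 0.0483 in the AVN/His library, 0.0329 in the LV library and 0.0286 in the RV library, with a UMI in 2.67 to 5.09% of cells. Endothelial-like, mural-like and epicardial-like cells had 0 UMIs in every library. Against a floor of 3 UMIs over the group, cardiomyocyte-like cells were at least 31.4-fold higher than endothelial-like, 5.80-fold higher than mural-like and 3.20-fold higher than epicardial-like cells. The levels in conduction myocytes (SAN-like cells 0.0307, AVN/His-like cells 0.0621, PF-like cells 0.0677 in the LV and 0.0131 in the RV library) had intervals that overlapped those of the working myocytes. The call of Gja3 in cardiomyocyte-like cells was lost with DESeq2 (adjusted p = 0.141).

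In the test of cardiomyocyte-like cells against the mean of the other 4 classes, 66.8% of all genes tested passed, and so did all 5 connexins that could be tested. Gja1 was higher by 3.30 ± 0.17 on the log2 scale (adjusted p = 2.47e-10), Gja5 by 2.31 ± 0.54 and Gja3 by 7.66 ± 0.74, a size that depends on the fit's prior count because 3 of the other classes held no Gja3 UMI, and Gja4 was lower (-3.92 ± 0.65), as was Gjc1 (-0.65 ± 0.19). The Gja4 call was lost without the SAN library (adjusted p = 1) and the Gjc1 call after thinning (adjusted p = 0.0724). Gja5 in cardiomyocyte-like cells was above endothelial-like cells only in the SAN library, at 2.27 against 0.393 UMIs per 10000. In the AVN/His, LV and RV libraries it was 0.0738, 0.147 and 0.0699, against 0.297, 0.381 and 0.604 in endothelial-like cells. Between atrial-like and ventricular-like cells 23.2% of genes passed and 1 of 5 connexins did, and between PF-like and ventricular-like cells 21.5% passed and 2 of 4 connexins did. Classes were built from other genes of the same cells, which can make these p-values of edgeR too small. With the library as a block, they measure how class differences vary between libraries, 4 for the 5 classes and 2 for PF-like cells. The arterial-like and smooth muscle-like comparisons given below also rest on 2 libraries. These fits and the PF-like fit had 1 residual degree of freedom, so their spread was largely borrowed across genes. The atrial-like fit had no block. The labels do not tie the libraries to separate animals.

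Of the 13431 genes tested in cardiomyocyte-like cells against the other classes, 4821 were higher and 4152 lower. All 12 intercalated disc genes listed were higher in cardiomyocyte-like cells, with a median log2 fold change of 4.12 against 0.02 for all genes tested. They include Cdh2 (N-cadherin, 4.12) and Pkp2 (plakophilin 2, 4.48). Of 13 tested genes that traffic, scaffold or turn over connexins, 7 were higher and 5 lower, beside the 66.8% of all genes that passed. Cxadr, an adhesion protein of the disc, was higher by 3.96, and Dbn1, an actin-binding protein that anchors connexin 43, was lower (-4.22). In PF-like against ventricular-like cells, where 21.5% of all genes passed, 3 of 12 tested disc genes were higher. Among them was Xirp2, an actin-binding disc protein (3.08 ± 0.41). Dbn1 was higher too (3.65 ± 0.55). Of 7 tested transcription factors tied to connexins, 4 were higher in PF-like cells and 1 lower, beside the same 21.5%. Tbx5 was higher by 1.75 and Nkx2-5 by 0.60, while Tbx20 was lower (-1.01). Tbx5 was also higher in atrial-like than in ventricular-like cells, by 3.83 ± 0.12. Pannexins form channels in 1 membrane, without docking, and Panx2 was higher in atrial-like cells (2.78) and in PF-like cells (2.23) than in ventricular-like cells.

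Among the named groups of endothelial-like cells, with libraries summed, Gja4 and Gja5 were highest in arterial-like cells. Gja4 had 7.56 UMIs per 10000 in arterial-like cells of the SAN library, 7.81 in the AVN/His, 9.35 in the LV and 6.67 in the RV library, against 1.25, 0.873, 0.457 and 0.387 in other endothelial-like cells of the same libraries in that order. Gja5 had 6.36, 4.06, 4.33 and 4.75 in arterial-like cells, against 0.132, 0.0300, 0.0412 and 0.0268 in other endothelial-like cells. For both genes the lowest arterial-like value lay above the highest of the other endothelial-like cells, though the arterial-like cells number 13, 25, 19 and 44. Gja5 and Gja4 were among the 10 leading genes of the arterial-like cluster, although neither was used to cluster. Without cells that carried markers of a second class, arterial-like levels were 4.15 to 15.1 for Gja4 and 1.38 to 8.43 for Gja5, from 2, 7, 4 and 17 cells. In the AVN/His and RV libraries, which hold at least 20 arterial-like cells, the log2 fold change was 3.59 ± 0.16 for Gja4 (adjusted p = 9.52e-111) and 7.23 ± 0.21 for Gja5 (adjusted p = 2.51e-249), by edgeR with 1 residual degree of freedom. The spread of this fit was largely borrowed across genes, so these p-values say little about variation between libraries. Of all genes 14.5% passed that test, and of 4 connexins 2 did.

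Gja4 reached further into the endothelium than Gja5. Endocardial-like cells had Gja4 at 1.26, 2.33, 0.755 and 0.925 in the SAN, AVN/His, LV and RV libraries, and capillary-like cells at 0.115, 0.230, 0.364 and 0.134. Gja5 in these groups was at most 0.0858. The 15 lymphatic-like cells had 4.86 for Gja4 and 3.36 for Gja1, the highest Gja1 outside myocytes among the named groups. A cluster of 14 cells led by Eln, all from the SAN library and with no name, had 9.34 for Gja4, 4.04 for Gja5 and 0 UMIs of Gja1. After thinning, 84.1% of arterial-like cells with a Gja5 UMI also had Gja4 (69.9 to 93.4, exact binomial interval), against 50.9% of those without one. Gja1 was found in 4.55% of the Gja5-positive and 17.5% of the other arterial-like cells.

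Gja1 and Gjc1 were low but present in endothelium. Endothelial-like cells had Gja1 at 0.666, 0.731, 0.798 and 0.650 in the SAN, AVN/His, LV and RV libraries, and macrophage-like cells had 0.354, 0.399, 0.411 and 0.707. Myocyte markers summed to 3.15 to 5.37 UMIs per 10000 in endothelial-like cells, so that Gja1 had 12.4 to 20.6 UMIs per 100 marker UMIs, above the 0.712 to 1.10 of cardiomyocyte-like cells. Between arterial-like and other endothelial-like cells Gja1 did not pass the test (0.03 ± 0.19), with a ratio of 1.60 (1.15 to 2.19) in the 19 arterial-like cells of the LV library, which was not in the fit, but with all variable genes, 20 principal components or 1.5 times the resolution it was called higher, at 0.60 to 0.62. In endothelial-like cells against the other classes, where 51.9% of genes passed, 3 of 5 tested connexins did: Gja4 was higher by 5.57 ± 0.18 (adjusted p = 1.16e-11), Gja5 was higher by 3.32 ± 0.62 (adjusted p = 0.000387), and Gjc1 was lower (-0.99 ± 0.20, adjusted p = 0.000704), all by edgeR. Without the library as a block the Gja5 call was lost (adjusted p = 0.0601). Of 10 tested transcription factors on the list, 3 were higher and 5 lower in endothelial-like cells, beside the 51.9% of all genes. Msx1 (5.68) and Smad6 (1.62) were among the higher, and Hopx (-3.23) and Tbx20 (-3.48) among the lower. In arterial-like over other endothelial-like cells, where 14.5% of genes passed, 3 of 6 tested factors were higher and 2 lower. Msx1 (1.65) and Smad6 (1.29) were higher again there, and Gata4 (-4.48) and Tbx20 (-2.04) were lower. Smad6 was also higher in fibroblast-like cells (1.15).

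**Figure D4:**
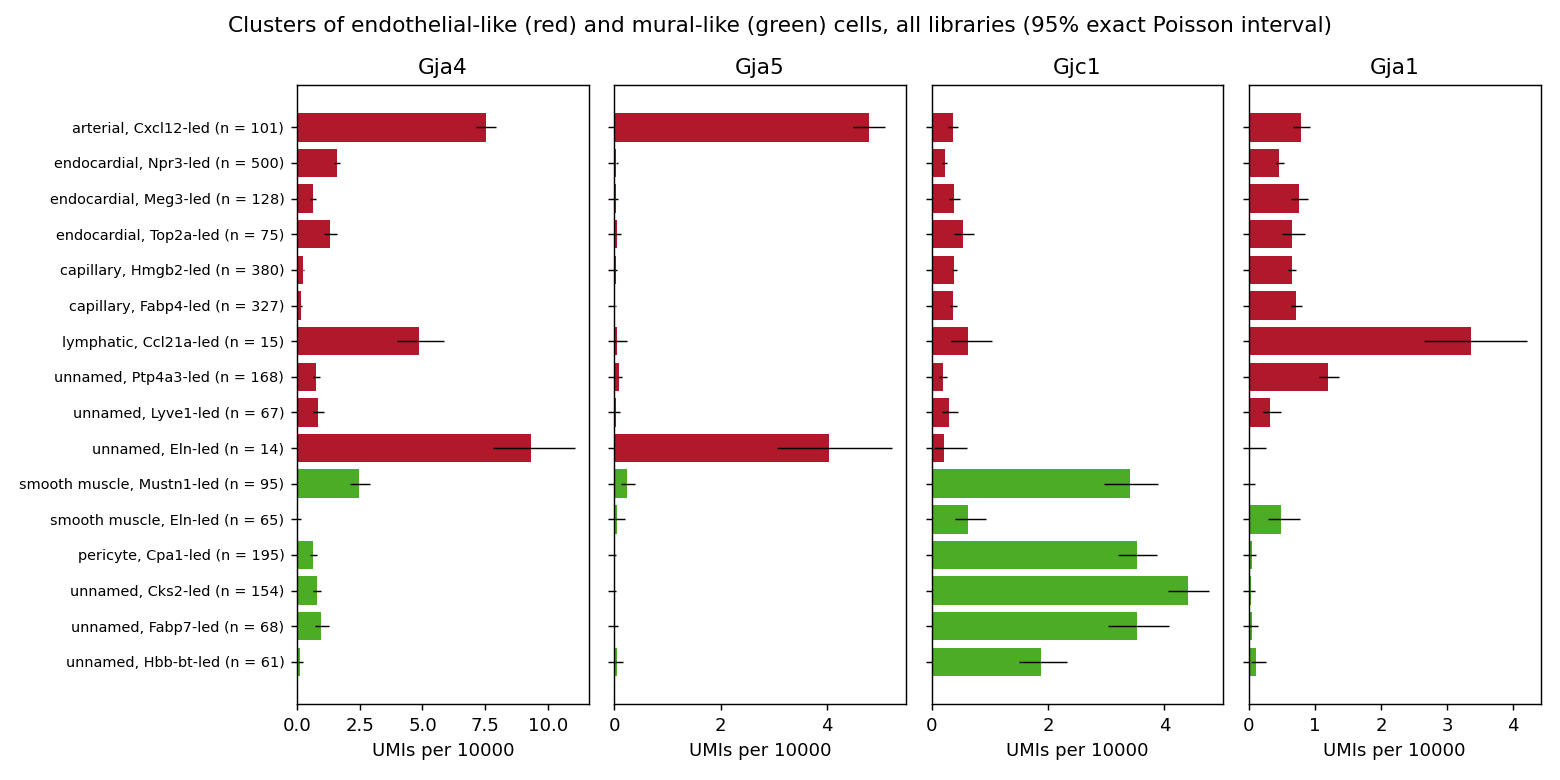
Level of Gja4, Gja5, Gjc1 and Gja1 (horizontal axes, UMIs per 10000) in each cluster of endothelial-like (red) and mural-like (green) cells over all libraries, with 95% exact Poisson intervals and cell numbers. Gja4 and Gja5 are at 7.52 and 4.79 in the arterial-like cluster and at 9.34 and 4.04 in the unnamed Eln-led cluster, while Gjc1 is at 1.88 to 4.41 in all but the Eln-led smooth muscle-like cluster among mural-like cells.

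Promoter sequence is shown for 3 genes with high levels in myocytes (Gja1), in arterial endothelium (Gja4) or in both (Gja5). It is given as the 250 bases before the RefSeq start on GRCm38.p6, from 5′ to 3′. Capitals mark a GC box (GGGCGG) for Gja5 and Gja4 and an AP-1 motif (TGACTCA, here on the other strand) for Gja1. Gja5 is on chr3:97032152-97032401 (+), Gja4 on chr4:127314040-127314289 (-) and Gja1 on chr10:56377050-56377299 (+).
Gja5: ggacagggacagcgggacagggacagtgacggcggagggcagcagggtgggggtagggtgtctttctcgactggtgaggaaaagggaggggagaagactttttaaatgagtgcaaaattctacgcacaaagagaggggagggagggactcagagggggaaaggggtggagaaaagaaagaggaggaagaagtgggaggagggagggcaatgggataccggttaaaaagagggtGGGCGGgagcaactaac
Gja4: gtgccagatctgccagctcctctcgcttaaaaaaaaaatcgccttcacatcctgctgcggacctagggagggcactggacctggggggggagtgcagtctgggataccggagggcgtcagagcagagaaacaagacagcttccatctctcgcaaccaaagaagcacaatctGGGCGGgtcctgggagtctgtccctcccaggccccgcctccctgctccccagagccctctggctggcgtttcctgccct
Gja1: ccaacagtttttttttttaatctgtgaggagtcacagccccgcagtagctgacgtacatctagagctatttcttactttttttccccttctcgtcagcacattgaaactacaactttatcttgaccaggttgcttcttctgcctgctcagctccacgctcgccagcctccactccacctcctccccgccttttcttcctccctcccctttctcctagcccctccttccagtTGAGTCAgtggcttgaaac
The GC box starts 17 bases before the start of Gja5 and 79 before that of Gja4, and the AP-1 motif 19 before that of Gja1. On either strand, GGGCGG occurs in 32.74% of 32851 RefSeq promoters and TGACTCA in 4.463%. A T-box motif (GGTGTGA, in 3.333%), an Nkx2-5 motif (TNAAGTG, in 10.06%) and a TATA box (TATAAA, in 12.37%) were in none of the 3 windows.

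Mural cells were the site of the highest Gjc1. Mural-like cells had 1.25 UMIs per 10000 in the SAN library, 3.23 in the AVN/His, 3.94 in the LV and 3.69 in the RV library, and a UMI was found in 36.7, 73.3, 90.6 and 88.1% of cells. Without cells that carried markers of a second class the level was 0.494 in the SAN library (14 cells) and 3.53 to 4.44 in the others. Gjc1 was higher in mural-like cells than in the mean of the other 4 classes by 2.85 ± 0.18 on the log2 scale (adjusted p = 3.60e-08, edgeR), where 32.4% of genes passed. Gja4 was higher as well, by 4.69 ± 0.22, and Gja1 was lower (-3.78 ± 0.31). Gja1 in mural-like cells was 0.106, 0.148, 0.0974 and 0.0214, which is below the macrophage-like cells of each library.

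Within mural cells, smooth muscle-like cells had Gja4 at 1.78 in the AVN/His and 2.04 in the RV library, against 0.778 and 0.738 in pericyte-like cells of those libraries. The log2 fold change was 1.23 ± 0.25 (adjusted p = 0.00539, edgeR, where 17.2% of genes and 1 of 2 tested connexins passed), and the call was lost with DESeq2 (adjusted p = 0.350) and after thinning (adjusted p = 0.0858). Gjc1 was 2.30 and 3.63 in smooth muscle-like cells, against 3.42 and 3.25 in pericyte-like cells, and did not pass (-0.30 ± 0.23). The smooth muscle-like cells were of different kinds. A Mustn1-led cluster (95 cells) had 2.48 for Gja4 and 3.40 for Gjc1, and an Eln-led cluster (65 cells, 51 from the SAN library) had 0.0271 and 0.624. The ratio was 91.4 (16.2 to 3633) for Gja4, from 1 UMI in the Eln-led cells, and 5.46 (3.54 to 8.79) for Gjc1. Gja1 went the other way, with 0.0154 against 0.488.

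Fibroblast-like cells had Gjc1 at 0.533, 0.502, 0.513 and 0.530 in the SAN, AVN/His, LV and RV libraries, above Gja1 in each but the LV library and with a spread smaller than the counting error. Macrophage-like cells of the same libraries had 0.122, 0.133, 0 and 0.16. Against the other classes Gjc1 did not pass the test (-0.27 ± 0.19, adjusted p = 0.283). Gja1 in fibroblast-like cells was 0.319, 0.365, 0.534 and 0.428, beside 0.354, 0.399, 0.411 and 0.707 in macrophage-like cells, and thinned shares were 5.27 to 6.32% beside 2.34 to 9.09%, so fibroblast Gja1 was not above macrophage-like cells beyond counting error. Without cells that carried markers of a second class it was 0.174 to 0.349. Per 100 myocyte marker UMIs, over all fibroblast-like cells, it had 1.18 to 1.89 UMIs, beside the 0.712 to 1.10 of cardiomyocyte-like cells. Gja1 was called lower than in the other classes (-0.88 ± 0.21, adjusted p = 0.00351), and so was Gja4 (-2.57 ± 0.55), which makes 2 of 5 tested connexins where 38.2% of genes passed. The Gja1 call was lost without the AVN/His library (adjusted p = 0.0741) and the Gja4 call without the SAN library (adjusted p = 1). Gja5 was 0.176 in the SAN library and 0.00989 to 0.0178 in the others, and in the SAN library it had 0.650 UMIs per 100 myocyte marker UMIs, beside 0.640 in cardiomyocyte-like cells.

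Epicardial-like cells, found in the SAN (181) and AVN/His (26) libraries, had Gja1 at 1.01 (0.879 to 1.15) and 1.26 (0.900 to 1.71). Macrophage-like cells of those libraries had 0.354 and 0.399, and erythroid-like cells 1.56 and 1.61. Per 100 myocyte marker UMIs the epicardial-like cells had 4.48 and 9.98 Gja1 UMIs, above cardiomyocyte-like cells at 0.712 and 0.759. Gja1 was higher by 1.14 ± 0.28 (adjusted p = 0.00695, edgeR), and Gja4 (-3.78 ± 0.71) and Gjc1 (-0.94 ± 0.33, adjusted p = 0.0476) were lower, 3 of 5 tested where 27.7% of genes passed. The Gja1 call was lost without either library (adjusted p = 0.131 without the SAN library and 0.0586 without the AVN/His library) and after thinning (adjusted p = 0.253), and the Gjc1 call was lost with each library left out (adjusted p = 0.0584 to 0.22). All 207 cells carried markers of a second class, so no fit could be made without such cells. Of the connexins outside the 7, Gjb5 (7.04 ± 0.88, adjusted p = 0.000105, edgeR), known from skin and other epithelia, was higher in epicardial-like cells, and it lies near Gja4 on chromosome 4.

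**Figure D5:**
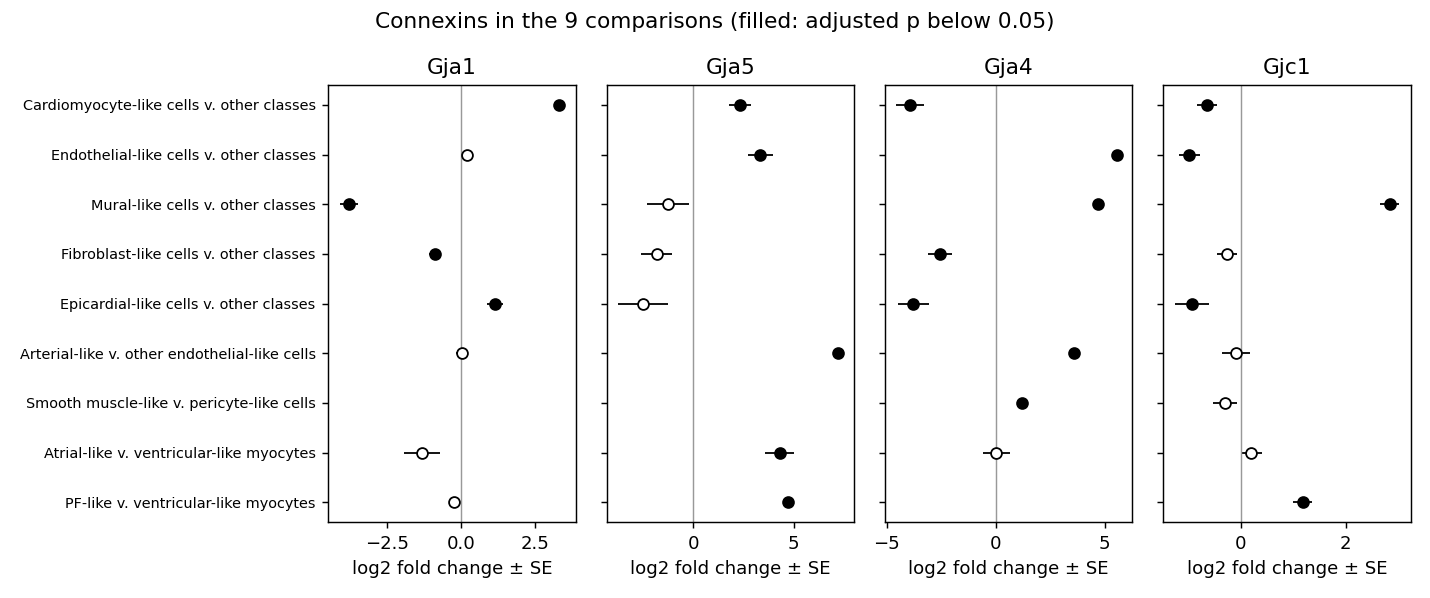
Log2 fold change with its SE (horizontal axes) of Gja1, Gja5, Gja4 and Gjc1 in each of the 9 comparisons (vertical axis, the class named first over the class named second), with filled points for an adjusted p below 0.05. The largest value drawn is the 7.23 of Gja5 in arterial-like over other endothelial-like cells, and genes not tested have no point.

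Gjb2 and Gjd3 were too rare for a test. Of the 4 Gjb2 UMIs 0 were in cardiomyocyte-like cells, and of the 4 Gjd3 UMIs 2 were. Gjd3 had 0 UMIs in the 260 AVN/His-like cells, where 3 UMIs over the group would be a level of 0.0103 UMIs per 10000 and the upper 95% Poisson limit is 0.0127.

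The genes whose levels over 35 class-by-library sums were most like each connexin were named by Pearson's r of log2 levels, as a description, since sums of 1 library share its depth. Among them were Epas1 (0.87), Tm4sf1 (0.83) and Reep3 (0.82) for Gja4, Arhgef17 (0.89), Farp1 (0.89) and Lgalsl (0.88) for Gjc1, and Sdsl (0.93) and Ftcd (0.93) for Gja3. For Gja1 they were Fig4 (0.81), Bnip3 (0.79) and Mrpl34 (0.79). Gja5 had the weakest likeness, with Mrps6 (0.69), Mansc1 (0.69) and Tmem178 (0.68).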

How the data were processed

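The deposited tables hold UMI counts per gene and cell, which the authors made with Cell Ranger at default settings against mm10 (version and annotation not given in the sources used here), without normalization. Cells with at least 500 genes and 1000 UMIs, the lower limits of the study, were kept (44861830 to 55795938 UMIs per library). Log counts, with UMI number and ribosomal share regressed out, were clustered on 2000 variable genes, from which the 7 members and all listed genes were left out, using scanpy 1.11.5 and leidenalg 0.10.2 in Python 3.11.15 (30 principal components, 10 for the myocytes of each zone, 30 neighbors, resolution 0.8) in place of Seurat. Numerical work used scikit-learn 1.9.0, pandas 2.3.3, scipy 1.17.1 and numpy 2.4.6, and plots matplotlib 3.10.9. A name needed at least 3 markers and 50% of its list, each raised by 0.25 (natural log) and found in 10% of cells. Sub-clusters with the markers of another class (625 cells) were left out of the classes, and 1128 cells led by Sfrp2 had no name. Scrublet marked 2.07% of cells in the SAN and AVN/His libraries, 0.0588% in the LV and 0% in the RV library, so it did not work for the ventricles, and no doublets were removed.

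Levels have exact Poisson, shares exact binomial and ratios exact conditional intervals (95%), which cover counting error. Counts summed per library and class (at least 20 cells) were tested in R 4.3.3 with edgeR 4.0.16 (TMM, filterByExpr, glmQLFit, glmQLFTest, the library as a block except for atrial-like against ventricular-like cells), with Benjamini-Hochberg adjustment over all genes tested at 0.05. Tested on simulated data, 4-fold changes were recovered for 100% of changed genes in endothelial-like, 84% in arterial-like, 94% in smooth muscle-like, 99% in atrial-like and 67% in PF-like comparisons, and 2-fold changes for 97, 34, 47, 76 and 24%. The simulation gave every gene the same spread, had no library effect, and changed only genes with a mean of at least 20 UMIs per sum. These shares therefore do not hold for rarer connexins or for differences between regions. Alternatives were the DESeq2 1.42.0 size factors and Wald test, no filter, the other block, each library left out, other clusterings, stricter cell filters, counts thinned to 2000 UMIs per cell and the mean of per-cell values. All 7 members are named, and of each list at most 2 genes in each direction with the lowest p, though a few genes that the rule names are not reported here. The members, lists and markers were chosen with earlier results of these data known. RefSeq promoters were at hand for 5 of the 7 genes, Gjc1 and Gjd3 being the others.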

Additional observations from a re-analysis of the deposited data

Results flagged for a closer look

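Some ratios between neighbouring cell types pointed one way in 1 library and the other way in another, and these differences between libraries were not tested. Gja1 in arterial-like over other endothelial-like cells was 0.759 in the AVN/His library (95% interval 0.458 to 1.19) and 1.25 in the RV library (0.967 to 1.61). In the libraries with under 20 arterial-like cells it was 1.60 in the LV library (1.15 to 2.19, 19 cells) and 0.797 in the SAN library (0.452 to 1.31, 13 cells). Gjc1 in the same cells was 0.713 in the AVN/His library (0.363 to 1.27) and 1.17 in the RV library (0.774 to 1.72), and 1.02 in the LV library (0.543 to 1.76) and 1.79 in the SAN library (0.961 to 3.09). Gja1 in PF-like over ventricular-like cells was 0.897 in the LV library (0.778 to 1.03) and 1.02 in the RV library (0.909 to 1.14). Gjc1 in smooth muscle-like over pericyte-like cells was 0.671 in the AVN/His library (0.492 to 0.914) and 1.12 in the RV library (0.874 to 1.42), and 0.983 in the LV library (0.565 to 1.61, 7 smooth muscle-like cells) and 0.569 in the SAN library (0.237 to 1.65, 5 pericyte-like cells). Of these 14 ratios, 2 have a counting interval that leaves out 1, that of Gja1 in arterial-like cells of the LV library and that of Gjc1 in smooth muscle-like cells of the AVN/His library.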

How the results depend on the processing

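Of the values of single connexins in the 9 comparisons under other settings, 522 kept their direction and side of the threshold or stayed uncalled, 19 lost the call, 13 gained one and none turned round once called. Counts of connexins called stayed within 1.5 times except as follows. After thinning, 3 were called in cardiomyocyte-like cells (5 before), 0 in epicardial-like cells (3 before, and 0 at an unadjusted p under 0.05 by edgeR) and 0 between smooth muscle-like and pericyte-like cells (1 before, and 1 at an unadjusted p under 0.05). The last comparison gave 2 without a filter and 0 with the DESeq2 Wald test (1 at an unadjusted p under 0.05). Within the limit of 1.5 times, the DESeq2 Wald test called 4 in epicardial-like cells. With 1 library left out the counts were 1 to 2 for fibroblast-like cells (1 without the SAN or the AVN/His library, 2 otherwise). For epicardial-like cells they were at most 2 without the LV or the RV library. Without the SAN or the AVN/His library, epicardial-like and atrial-like cells had no replicate sum, so no count is given for them. Atrial-like against ventricular-like myocytes gave 2 without a filter. Of 280 levels of a gene in a class and library, 68 had a UMI in over 25% of cells, and 23 after thinning. The library was the block of every fit but atrial-like against ventricular-like cells. This block paired the classes within each library. Regions could not be paired, because each has 1 library and so no replicate numbers to pair. Leaving out a library of the arterial-like, smooth muscle-like or PF-like comparison left no residual degrees of freedom, so those fits were not run. Leaving out cells with markers of a second class left too few arterial-like and smooth muscle-like cells for a fit. It also left no epicardial-like cells. Cardiomyocyte-like, endothelial-like, mural-like and fibroblast-like cells were fitted together with these, so none of the class comparisons was checked in this way. Without cells that carried markers of a second class, the atrial-like and PF-like comparisons kept their counts (1 and 2). Levels were also computed without those cells, an alternative chosen after seeing the data. With 1 library per region, regions and libraries cannot be told apart.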
